A study of Saccharomyces cerevisiae with 4 samples.

Results

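OLE1 encodes the stearoyl-CoA desaturase of budding yeast, the enzyme that makes the monounsaturated fatty acids of its membranes. Mga2 and Spt23 are transcription factors that are made as precursors held in the membrane of the endoplasmic reticulum. When unsaturated fatty acids are scarce, the proteasome cuts them free and they activate OLE1. The substrate of Ole1 comes from fatty acid synthesis: Acc1 makes malonyl-CoA, and the fatty acid synthase built from the beta subunit Fas1 and the alpha subunit Fas2 extends it into saturated chains. Faa1, Faa3 and Faa4 couple free fatty acids to coenzyme A, and Acb1 binds and carries the acyl-CoA esters. The mRNAs of these 10 genes were picked by name, for their roles, from the 5738 genes with a coding probe. That choice was made with earlier results of these data known. All 10 had a probe, and 9 of them had a value on every array.

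Whi3 binds RNA and holds back the G1 cyclin Cln3. RNA was recovered on IgG Sepharose from strains of the W303 background that carried Whi3 with a TAP tag (Whi3-TAP) or the same tagged protein with its RNA recognition motif deleted (Whi3-dRRM-TAP), the control for RNA that came down without that motif. Cultures of both strains were in log phase at harvest, in rich medium with glucose (YPD). Each group had 2 arrays from separate biological replicates, 1 in each of 2 experiments, and on each array the Cy3-labelled immunoprecipitate was hybridised with Cy5-labelled total RNA of the same strain. The log ratio is log2 of immunoprecipitate over total RNA, and the net log ratio is that of Whi3-TAP minus that of Whi3-dRRM-TAP within an experiment, averaged over the 2 experiments. Tagged Whi3 was under its own promoter. Both strains were tagged, so neither shows what the resin alone retained.

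The arrays differed in quality. Spots that carried no negative scan flag were 79.8% and 86.5% of yeast spots on the Whi3-TAP arrays, against 46.4% and 76.7% on the Whi3-dRRM-TAP arrays. Of the 84 spots printed for the 10 genes, 75 and 77 were usable on the Whi3-TAP arrays and 64 and 74 on the Whi3-dRRM-TAP arrays. Of the 4295 genes with a value on all 4 arrays, the immunoprecipitate exceeded background for 3822 and 4263 in Whi3-TAP, but for 712 and 2813 in Whi3-dRRM-TAP (arrays 1 and 2). Whi3-dRRM-TAP array 1 therefore stood apart, and values without it are given below. CLN3, a known target of Whi3, had log ratios of 1.84 and 1.70 in Whi3-TAP, against 0.26 and 0.32 in Whi3-dRRM-TAP, a net log ratio of 1.48 ± 0.14 (SD, n = 2 experiments). Its immunoprecipitate was not above background on Whi3-dRRM-TAP array 1.

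OLE1 mRNA came down with Whi3-TAP far more than with Whi3-dRRM-TAP, and it had the highest net log ratio of the 9 measured genes. Its log ratios were 2.62 and 1.49 in Whi3-TAP, against 0.48 and -0.43 in Whi3-dRRM-TAP (arrays 1 and 2). Both Whi3-TAP values lay above both control values, and the arrays numbered 1 were the higher ones in each group. The net log ratio was 2.14 in experiment 1 and 1.93 in experiment 2, with a mean of 2.03 ± 0.15 (SD, n = 2), or 4.09-fold, a 95% interval of 1.47 to 2.60 and a rank of 20 among 4295 genes. CLN3 ranked 79. In limma with the experiment as a block, OLE1 had an unadjusted p of 4.95e-04 and a Benjamini-Hochberg adjusted p of 0.0678, the smallest on the arrays and shared with other genes, so it did not pass the threshold of 0.05. Its adjusted p was between 5.48e-05 and 0.414 over 19 other settings and passed in 9 of them, while the net log ratio was between 1.47 and 2.59. The limit by which putative targets are taken, a fixed multiple of the SD above the mean of all genes, stood at 1.05 (the upper limit), and OLE1 was the 1 gene of the 9 above it, where 5.01% of all genes lay.

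Saturation can limit the OLE1 value from above. In the immunoprecipitate channel the mean net intensity of OLE1 was 40483 and 53905 on the Whi3-TAP arrays, against 4247 and 6358 on the Whi3-dRRM-TAP arrays. In its median spot 33% and 80.5% of the immunoprecipitate pixels were saturated on Whi3-TAP arrays 1 and 2, and none were on the Whi3-dRRM-TAP arrays. Saturated pixels cannot register more signal, so the scanner can limit the Whi3-TAP values of OLE1, and with them the net log ratio. With spots of at least 50% saturated pixels left out, 9 and 3 of the 12 spots were left on the Whi3-TAP arrays, and the net log ratio was 2.12.

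**Figure D1:**
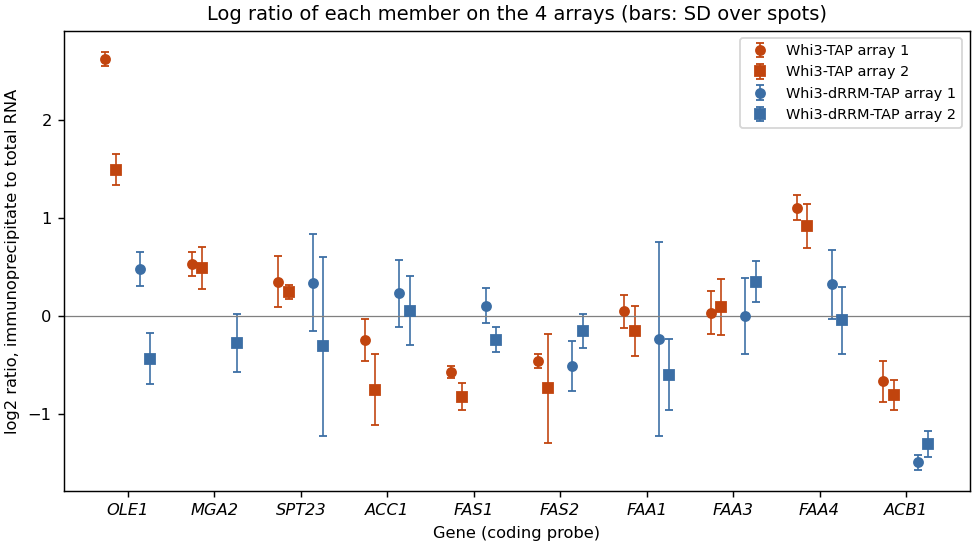
Log2 ratio of immunoprecipitate to total RNA (y axis) for the coding probe of each of the 10 genes (x axis), with orange points for the 2 Whi3-TAP arrays and blue points for the 2 Whi3-dRRM-TAP arrays. Bars are the SD over the spots of the probe on an array. OLE1 (2.62 and 1.49 in Whi3-TAP) and FAA4 (1.10 and 0.92) stand highest, FAS1 and ACC1 lie lower in Whi3-TAP than in Whi3-dRRM-TAP with this loess normalization (not with median centring), and ACB1 lies below 0 on every array.

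In comparison with total RNA of its own strain, OLE1 averaged 2.05 ± 0.80 in Whi3-TAP (adjusted p = 0.0179 in limma) and 0.02 ± 0.65 in Whi3-dRRM-TAP (adjusted p = 0.968, SD, n = 2 arrays each). With median centring the Whi3-dRRM-TAP value was -0.97, while the Whi3-TAP value was between 1.45 and 2.18 over 11 alternatives and passed in each. The dyes were not swapped, so a dye effect stays in these ratios. It cancels in the net log ratio only if it was equal in both groups, which was not tested. The level of OLE1 in total RNA gave a difference of 0.04 between the strains on the log2 scale, with -0.07 and 0.14 in the experiments and a 95% interval of -0.36 to 0.43. In the immunoprecipitate channel, after the same scaling between arrays, the difference was 2.07 in each experiment. With this scaling and all spots, the net log ratio of OLE1 thus lay almost wholly in the immunoprecipitate. The total RNA value was 0.41 when each array was scaled by its median instead, and -0.52 with saturated spots left out.

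Of the activators, Mga2 and Spt23 are related proteins with overlapping roles. MGA2 had log ratios of 0.53 and 0.49 on the Whi3-TAP arrays, against -0.27 on Whi3-dRRM-TAP array 2. None of its 4 spots was usable on Whi3-dRRM-TAP array 1, so it was in no fit over 4 arrays, and its net log ratio in experiment 2 was 0.76. Its immunoprecipitate was above background on both Whi3-TAP arrays and not on Whi3-dRRM-TAP array 2, and among those 3 arrays total RNA was above background only on Whi3-dRRM-TAP array 2. Without Whi3-dRRM-TAP array 1, limma gave 0.78 for MGA2 (adjusted p = 0.0769), and with spots of a negative flag kept it gave 0.80 (adjusted p = 0.0197). The second of these rests on spots that the scan had marked as bad. SPT23 had log ratios of 0.35 and 0.25 in Whi3-TAP, against 0.34 and -0.31 in Whi3-dRRM-TAP. The groups overlapped, and the net log ratio was 0.01 in experiment 1 and 0.56 in experiment 2, with a mean of 0.28 ± 0.39 (adjusted p = 0.474, 95% interval -0.38 to 0.94). Its immunoprecipitate was above background on neither Whi3-dRRM-TAP array, and its 4 spots on Whi3-dRRM-TAP array 2 had an SD of 0.92. That interval holds the net log ratio of FAA4 given below. Whether the coding probes of MGA2 and SPT23 read each other's mRNA was not tested.

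The genes of fatty acid synthesis lay below 0 in Whi3-TAP. ACC1 had log ratios of -0.24 and -0.75 in Whi3-TAP, against 0.23 and 0.05 in Whi3-dRRM-TAP. Its groups did not overlap, and the net log ratio was -0.64 ± 0.24 (unadjusted p = 0.0400, adjusted p = 0.153). FAS1 had log ratios of -0.57 and -0.82 in Whi3-TAP, against 0.11 and -0.24 in Whi3-dRRM-TAP, again with no overlap. Its net log ratio was -0.68 and -0.58 in the experiments, with a mean of -0.63 ± 0.07 (unadjusted p = 0.0337, adjusted p = 0.142). These negative values depended on the normalization. Loess fits a curve over intensity on each array, and when each array was only centred on its median, FAS1 had -0.01 and ACC1 -0.04, beside a median of all genes of -0.21 (-0.09 with loess). Relative to that median, FAS1 stood at -0.54 and ACC1 at -0.55 with loess, and at -0.46 and -0.53 with print-tip loess. The values were 0.20 and 0.16 with median centring, and 0.22 and 0.17 in the authors' deposited log ratios. The direction thus held with print-tip loess and flipped for both genes in the other settings. A negative value also gives no amount, because every array was centred.

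FAS2, whose product forms 1 complex with Fas1, had log ratios of -0.46 and -0.74 in Whi3-TAP, against -0.51 and -0.15 in Whi3-dRRM-TAP. These overlapped, and the net log ratio was 0.04 in experiment 1 and -0.58 in experiment 2 (mean -0.27 ± 0.44, adjusted p = 0.508). The second value leaned on a single spot from another source plate, at -1.71, that was usable on Whi3-TAP array 2 alone. With the spots of source plate 106 only, experiment 2 gave -0.34 and the mean was -0.15. Its direction flipped to 0.36 with median centring, 0.30 with print-tip loess and 0.23 in the deposited log ratios. Among the 3 synthesis genes, FAS1 was below its total RNA in Whi3-TAP at -0.70 ± 0.18 (adjusted p = 0.0445). The call was lost with the median foreground (-0.68, adjusted p = 0.0562) and in the deposited log ratios (-0.98, adjusted p = 0.0543). FAS2 at -0.60 (adjusted p = 0.0674) and ACC1 at -0.50 (adjusted p = 0.119) did not pass here. FAS2 passed in 4 alternatives, without background correction (adjusted p = 0.0192), with median centring (-1.11, adjusted p = 0.0214), with dim genes left out (0.0215) and with an intensity trend (0.0327). ACC1 passed in 2, without background correction (adjusted p = 0.0380) and with median centring (-0.97, adjusted p = 0.0257).

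The 3 acyl-CoA synthetase genes gave different values. FAA4 had log ratios of 1.10 and 0.92 in Whi3-TAP, against 0.32 and -0.04 in Whi3-dRRM-TAP. All Whi3-TAP values were above the control values, and the net log ratio was 0.78 and 0.96 in the experiments, with a mean of 0.87 ± 0.13 or 1.83-fold (95% interval 0.31 to 1.43, unadjusted p = 0.0121, adjusted p = 0.0956, rank 340). FAA4 averaged 1.01 ± 0.13 over total RNA in Whi3-TAP (adjusted p = 0.0193) and 0.14 ± 0.26 in Whi3-dRRM-TAP (adjusted p = 0.582). The enrichment in Whi3-TAP lost its call with median centring (0.63, adjusted p = 0.0704) and in the deposited log ratios (0.85, adjusted p = 0.0846). FAA4 lay under the limit of 1.05 here, and above the limit of its own setting without background correction, with median centring, with flagged spots kept, in the deposited log ratios and without Whi3-dRRM-TAP array 1.

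FAA1 had log ratios of 0.05 and -0.15 in Whi3-TAP, against -0.24 and -0.60 in Whi3-dRRM-TAP. The values did not overlap, yet the net log ratio of 0.37 ± 0.11 had an adjusted p of 0.303. On Whi3-dRRM-TAP array 1 a single spot of FAA1 was at 2.67 while the lowest was at -1.23, and the 3 source plates gave net log ratios of 0.40, 0.67 and 0.03. FAA3 had log ratios of 0.03 and 0.09 in Whi3-TAP, against 0.00 and 0.35 in Whi3-dRRM-TAP. On Whi3-dRRM-TAP array 1 only 7 of its 12 spots were usable, and neither channel was above background. The groups overlapped, with a net log ratio of -0.11 ± 0.21 (adjusted p = 0.747, 95% interval -0.69 to 0.47). FAA1 and FAA4 encode related enzymes, and whether their long double-stranded probes read each other's mRNA was not tested.

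ACB1 passed the test as lower than total RNA in both strains, as no other of the 9 genes did with loess, whereas with median centring FAS1, FAS2 and ACC1 passed in both as well. It had log ratios of -0.67 and -0.80 in Whi3-TAP, against -1.49 and -1.31 in Whi3-dRRM-TAP. The mean was -0.74 ± 0.10 in Whi3-TAP (adjusted p = 0.0306) and -1.40 ± 0.13 in Whi3-dRRM-TAP (adjusted p = 0.0110). Its net log ratio of 0.66 ± 0.23 (unadjusted p = 0.0353, adjusted p = 0.145) was thus a difference between a pair of depletions, not an enrichment over total RNA. The ACB1 probe is short, at 264 bases, only 2 and 3 of its 4 spots were usable on the Whi3-dRRM-TAP arrays, and its immunoprecipitate was above background on neither of them, so no fold is given. The call in Whi3-TAP was lost with the median foreground (adjusted p = 0.0588).

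Of the 9 genes, 3 were higher (OLE1, FAA4 and ACB1) and 2 lower (FAS1 and ACC1, with loess but not with median centring) at an unadjusted p under 0.05, where 12.8% of all genes were higher and 16.5% lower. After adjustment 0 genes of the whole array passed by limma in either direction. The groups did not overlap for 4 genes with Whi3-TAP above (OLE1, FAA1, FAA4 and ACB1) and for 2 with Whi3-TAP below (FAS1 and ACC1), against 26.6% and 34.2% of all genes. Over total RNA, 2 genes passed as higher in Whi3-TAP (OLE1 and FAA4; 10.4% of all genes) and 2 as lower (FAS1 and ACB1; 8.94%). In Whi3-dRRM-TAP 0 were higher, against 13.6% of all genes, and ACB1 was lower, against 9.22%. That count moved with the scaling. With median centring FAS1 (-1.18, adjusted p = 0.00826), FAS2 (-1.48, adjusted p = 0.00633), ACC1 (-0.92, adjusted p = 0.0141) and FAA1 (-0.62, adjusted p = 0.0481) were also lower in Whi3-dRRM-TAP. In the deposited log ratios FAS2 was lower (-1.01, adjusted p = 0.0158) and SPT23 higher (0.92, adjusted p = 0.0448). The deposited Whi3-dRRM-TAP arrays had medians of 1.08 and 0.52, not 0. The SPT23 value lay between these medians, so its call against 0 shows no enrichment over the bulk of probes. The median net log ratio was 0.28 over the 9 genes and -0.09 over all genes.

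Without Whi3-dRRM-TAP array 1, and with no block, OLE1 had a net log ratio of 2.49 (adjusted p = 0.0194) and FAA4 one of 1.05 (adjusted p = 0.0379), so both passed. ACB1 had 0.57, FAA1 0.55 and SPT23 0.61, while FAS1 had -0.46, FAS2 -0.45, ACC1 -0.55 and FAA3 -0.29, none of which passed. All 9 genes kept their sign. The lone Whi3-dRRM-TAP array was assumed to vary like the Whi3-TAP pair in that fit.

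The spots of OLE1 and FAA4 came from several printings. OLE1 had 12 spots, 4 from each of 3 source plates, and all were usable on every array. On Whi3-TAP arrays 1 and 2 the spots lay between 2.51 and 2.76 and between 1.25 and 1.76, whereas the Whi3-dRRM-TAP spots lay at 0.07 to 0.72 and at -1.02 to -0.03. No Whi3-TAP spot fell among the control spots, and source plates 97, 109 and 113 gave net log ratios of 2.25, 1.81 and 2.04. FAA4 had 10 usable spots on each array, and plates 98, 109 and 113 gave 0.84, 0.93 and 0.83. Spots of an array share the same RNA, so they show the printing and scanning error only.

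**Figure D2:**
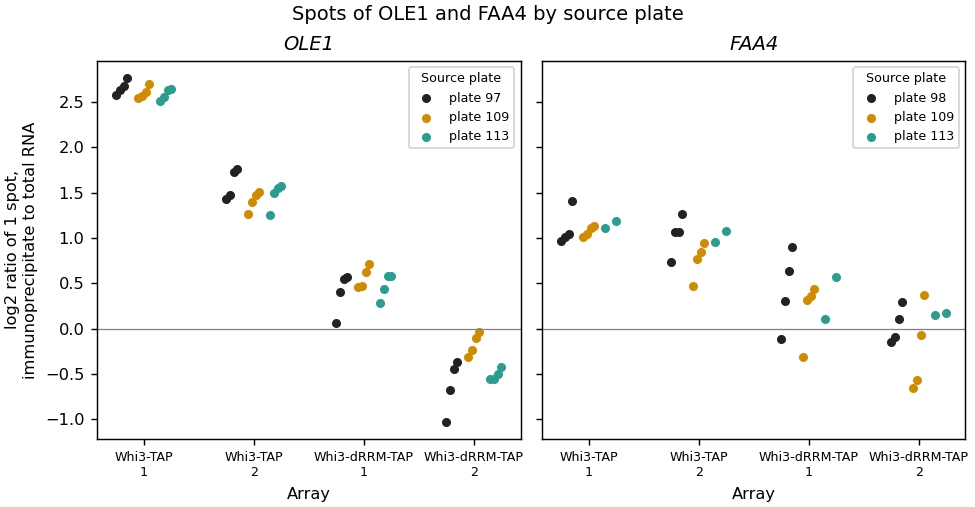
Log2 ratio of immunoprecipitate to total RNA for every usable spot (y axis) on the 2 Whi3-TAP and 2 Whi3-dRRM-TAP arrays (x axis), with OLE1 on the left, FAA4 on the right and colours for the source plate of the spotted DNA. The Whi3-TAP spots of OLE1 on either array (lowest 1.25) lie above the highest control spot (0.72).

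Probes for the 3′ UTR gave a second measure for 3 of the genes. The FAA4 3′ UTR probe had log ratios of 1.24 and 1.10 in Whi3-TAP, against 0.13 and 0.15 in Whi3-dRRM-TAP. Its net log ratio of 1.11 and 0.95 in the experiments (mean 1.03 ± 0.12) was near that of the coding probe at 0.87, although 2 of its 4 spots were left on Whi3-dRRM-TAP array 1 and were not above background there. The FAA3 3′ UTR probe had 0.46 and 0.15 in Whi3-TAP, against 0.28 (1 spot) and 0.16 in Whi3-dRRM-TAP, with net log ratios of 0.18 and -0.01. Like the coding probe of FAA3, it gave values near 0. The ACC1 3′ UTR probe had -0.51 and -0.62 in Whi3-TAP, against -0.62 on Whi3-dRRM-TAP array 2 and no value on array 1. Its net log ratio in experiment 2 was -0.002, whereas the coding probe of ACC1 had -0.81 there, so this probe did not repeat the negative value. The probe was above background in total RNA only on Whi3-TAP array 2, and its immunoprecipitate was not above background on Whi3-dRRM-TAP array 2.

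The net log ratio has total RNA in its denominator, so the channels were also compared apart, with Whi3-TAP minus Whi3-dRRM-TAP taken in each after quantile scaling of the average intensities. FAA4 gave 0.41 and 0.52 in the immunoprecipitate and -0.38 and -0.45 in total RNA, so nearly as much of its net log ratio stood in lower total RNA of the Whi3-TAP strain as in the immunoprecipitate. The total RNA difference of FAA4 was -0.41 (95% interval -0.79 to -0.03, unadjusted p = 0.0386, adjusted p = 0.388). When each array was scaled by its median it was -0.02, so the share of the channels depended on the scaling. ACB1 gave 0.43 and 0.24 in the immunoprecipitate and -0.40 and -0.26 in total RNA, a mean of -0.33 in total RNA (unadjusted p = 0.0798, adjusted p = 0.441).

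With loess and quantile scaling, ACC1 gave -0.65 and -0.65 in the immunoprecipitate and -0.18 and 0.16 in total RNA. When each array was scaled by its median, its total RNA difference was 0.38. FAS1 gave -0.45 and -1.13 in the immunoprecipitate and 0.23 and -0.54 in total RNA, and FAS2 -0.23 and -1.72 in the immunoprecipitate and -0.27 and -1.13 in total RNA. For both FAS genes the experiments differed widely in each channel. The mean total RNA difference of FAS2, -0.70 (unadjusted p = 0.0335, adjusted p = 0.381), was -0.18 with the median over the spots of a probe in place of the mean. On Whi3-TAP array 2 both channel values of FAS2 include the single usable spot of source plate 107. No spot of that plate was usable on Whi3-TAP array 1, where the mean net immunoprecipitate intensity was 4474 over the 4 usable spots and 2243 over all 8. The FAS2 entries in the counts that follow include that single spot. In total RNA 0 of the 9 genes passed after adjustment and 0 genes of all passed, while 2 of the 9 were lower (FAS2 and FAA4; 4.82% of all genes) and 0 were higher (7.47% of all genes) at an unadjusted p under 0.05. The total RNA groups did not overlap, with Whi3-TAP below, for 3 genes (FAS2, FAA4 and ACB1), against 14.3% of all genes, and for 0 genes with Whi3-TAP above, against 17.6%.

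**Figure D3:**
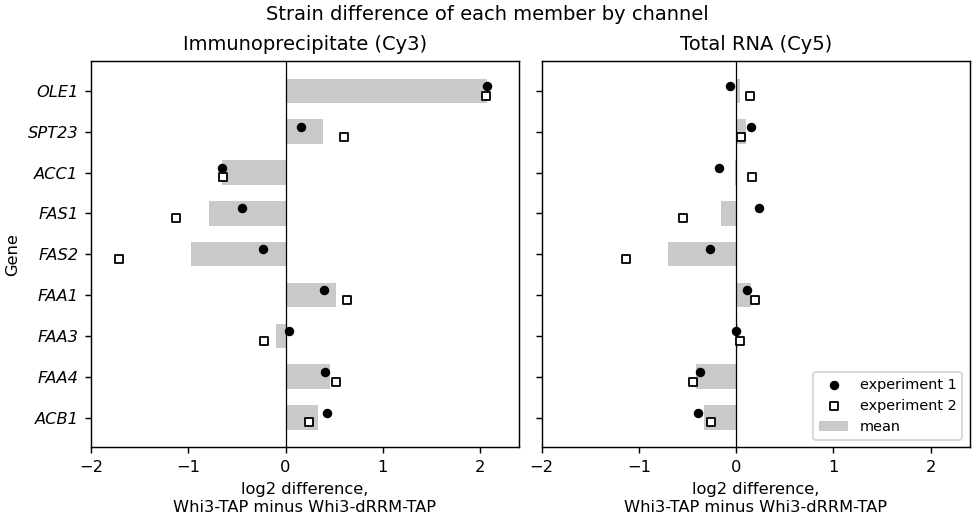
Difference of Whi3-TAP minus Whi3-dRRM-TAP (x axis, log2) in the immunoprecipitate (left) and in total RNA (right) for the 9 genes with 4 values, with grey bars for the mean, filled circles for experiment 1 and open squares for experiment 2. OLE1 differs by 2.07 in the immunoprecipitate and by 0.04 in total RNA, whereas FAA4 and ACB1 show differences of opposite sign in the channels.

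The genes most like OLE1, by Euclidean distance over the 4 log ratios, were MTC7 (0.38), STP4 (0.70), HAP4 (0.72), RGS2 (0.74) and CDC6 (0.74). MTC7 had log ratios of 2.42 and 1.67 in Whi3-TAP, against 0.24 and -0.33 in Whi3-dRRM-TAP, and a net log ratio of 2.09 (adjusted p = 0.0678). HAP4, which encodes a subunit of the activator of respiratory genes, had 2.12 and 1.33 in Whi3-TAP, against 0.33 and 0.04 in Whi3-dRRM-TAP. STP4 had a net log ratio of 1.62, RGS2 one of 1.50 and CDC6, a replication licensing factor, one of 2.43. The immunoprecipitates of STP4 and CDC6 were above background on neither Whi3-dRRM-TAP array, and RGS2 rested on 1 spot on at least 1 array, with total RNA above background on none. None of these 5 genes is among the 10 or on the lists of lipid genes below.

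Other lipid genes were read from 6 lists, in which 0 genes passed after adjustment in the blocked limma test. That count changed with the setting: of the 4 genes beyond a limit, ELO2 passed in 10 of 16 alternatives (without the block included, adjusted p = 0.0374), ACS2 in 8 of 16, POT1 in 7 of 16 and TSC13 in 5 of 14. With loess, 2 of 6 genes of fatty acid elongation lay above the upper limit. ELO2, a fatty acid elongase, had 1.32 and 1.64 in Whi3-TAP, against -0.44 and -0.45 in Whi3-dRRM-TAP, a net log ratio of 1.92 ± 0.23 (adjusted p = 0.0678, rank 25). It stood close to OLE1 in rank, and its groups were far apart, though its immunoprecipitate was above background on only 1 Whi3-dRRM-TAP array. TSC13, the enoyl reductase of elongation, had 1.18 ± 0.03 but rested on 1 spot on at least 1 array, had an immunoprecipitate under the background limit on both Whi3-dRRM-TAP arrays, and fell under the limit with median centring (0.63) and print-tip loess (0.85). The other 4 elongation genes lay between the limits, and the median of the 6 was 0.20.

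ACS2, which makes acetyl-CoA in glucose medium, was the 1 gene above the limit among 6 tested genes of acetyl-CoA supply and regulation (list median -0.15). It had 0.36 and 0.65 in Whi3-TAP, against -0.74 and -0.37 in Whi3-dRRM-TAP, a net log ratio of 1.06 ± 0.06 (adjusted p = 0.0808), and with print-tip loess it lay below the limit at 0.85. The immunoprecipitate of ACS2 was above background on only 1 Whi3-dRRM-TAP array. Uptake and beta-oxidation had the lowest median, -0.62 over 6 tested genes of 14, and none of the 6 had a positive mean. In both experiments 5 were negative, as were 1768 of all 4295 genes, while OAF1 had 0.16 in experiment 2. Most of the 6 were dim. Total RNA of PIP2, OAF1 and DCI1 was above background on 0 arrays, and PIP2, OAF1 and TES1 rested on 1 spot on at least 1 array. The immunoprecipitates of PIP2 and PCS60 were above background on neither Whi3-dRRM-TAP array. POT1, the peroxisomal thiolase, had 0.23 and 0.41 in Whi3-TAP, against 1.49 and 1.84 in Whi3-dRRM-TAP. Its net log ratio of -1.35 ± 0.12 (adjusted p = 0.0706) was beyond the lower limit of -1.21, where 5.05% of all genes lay. With median centring it was -0.89, inside that limit.

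The lists of Mga2 and Spt23 processing, mitochondrial fatty acid synthesis and acyl transfer held no gene beyond either limit. Of 5 tested processing genes (median -0.20), the ubiquitin ligase gene RSP5 was highest at -0.01 ± 0.26 and UFD1, of the Cdc48 segregase, lowest at -1.02 ± 0.63. Of 5 tested mitochondrial genes (median 0.11), the malonyl transferase gene MCT1 was highest at 0.61 ± 0.37 and the enoyl reductase gene ETR1 lowest at -0.86 ± 0.11. Of 7 acyl transfer genes (median -0.35), SLC1 was highest at 0.56 ± 0.25 and GPT2 lowest at -0.58 ± 0.07. Their adjusted p lay between 0.0968 (ETR1) and 0.980 (RSP5). Taken against 0, 3 signs changed with the scaling or the values used: MCT1 had -0.36 and SLC1 -0.12 in the deposited log ratios, and RSP5 had 0.04 with median centring. Relative to the median of all genes in the same setting, these 3 stayed positive, at 0.12, 0.36 and 0.24 (0.70, 0.64 and 0.08 with loess). In the deposited log ratios UFD1 (-2.08, adjusted p = 7.74e-04), GPT2 (-1.49, adjusted p = 0.0169) and ETR1 (-1.30, adjusted p = 0.0370) passed. The median of all genes was -0.48 there, and 400 genes passed as lower against 62 as higher. Relative to that median the 3 stood at -1.60, -1.01 and -0.83 (-0.94, -0.49 and -0.77 with loess). The immunoprecipitates of GPT2 and ETR1 were above background on neither Whi3-dRRM-TAP array. Total RNA of GPT2 was above background on 0 arrays, and ETR1 rested on 1 spot on at least 1 array. At an unadjusted p under 0.05, the 6 lists held 3 higher and 7 lower genes, beside 12.8% and 16.5% of all genes. The higher ones were 2 of 6 tested elongation genes and 1 of 6 of acetyl-CoA supply and regulation. The lower ones were 3 of 6 of uptake and beta-oxidation, 2 of 5 of processing, 1 of 5 mitochondrial and 1 of 7 of acyl transfer. No list was tested as a set.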

How the data were processed

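The 10 genes and the 6 lists were chosen with earlier results of these data known. The named genes were the 10 with their 3′ UTR probes, CLN3, the 5 genes nearest to OLE1 over the 4 log ratios and, of each list, genes past the threshold or the limit of 1.65 SD, otherwise the highest and lowest.

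Per the file headers, the intensity of a spot and of its surroundings stands in each table for either channel, from scans that the authors quantified in GenePix. Saturation is, per the file headers, the percent of a spot's pixels at the scanner maximum. The flag of a spot is a deposited score, 0 or negative, and spots below 0 were left out. In the series matrix the authors deposited 1 log2 ratio for each probe, background-subtracted and normalized by loess with spots averaged. Its values had r = 0.762 to 0.949 with the scanner ratios across probes, so it runs as immunoprecipitate over total RNA, and its medians of 0.22 to 1.08 show that its centring is not that used here. It served as an alternative. The deposited log2 ratio of each spot, total RNA over immunoprecipitate, was not used.

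The mean foreground was corrected by normexp (offset 50) on the median local background, within-array loess was applied to the log2 ratios, and the spots of each probe were averaged (limma 3.58.1, R 4.3.3). A value on all 4 arrays was required, which 4295 of 5738 genes had, and 975 genes lacked one only on Whi3-dRRM-TAP array 1. Tests were limma (lmFit and eBayes, 2-sided) over these genes with Benjamini-Hochberg adjustment at 0.05, with the replicate number as the experiment block for the net log ratio and for total RNA. The block leaves 1 residual degree of freedom beside a prior of 3.17. Arrays of the same number deviated from their group means with r = 0.218 across genes. The methods describe 2 independent experiments, which is where the pairing comes from. For total RNA, average intensities were quantile-normalized between arrays (Aquantile) and Cy5 was compared. A gene was above background in a channel where its mean net intensity exceeded 2 SD of the local background. SDs are over 2 arrays or 2 experiments, whose number limits the precision. Intervals are 95% intervals of the fit. The probes are double-stranded, so strand was not distinguished. Of the genes, 5548 matched RefSeq by systematic name. Probe positions are not given since no genome build is stated, and no probe sequence was used here. The net log ratio test was run on simulated data with independent noise, where only the mean estimate of an added effect was checked. That check does not bear on the error rate of the calls. Figures used Python 3.11.15, matplotlib 3.10.9 and pandas 2.3.3. Alternatives were the background correction, foreground, normalization, flags, saturated spots, dim genes, prior, block, scaling of total RNA, deposited ratios and each array left out. The median over spots and single source plates were chosen after seeing the data.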

Additional observations from a re-analysis of the deposited data

How the results depend on the processing

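The net log ratio of OLE1 stayed positive, between 1.47 and 2.59, in the 19 alternatives run for it, and OLE1 was above the limit in SD units in each setting that gave that count. FAA4 stayed between 0.69 and 1.25. What varied was the test. No gene passed the blocked limma test on the net log ratio, although at an unadjusted p under 0.05 there were 548 higher and 709 lower genes. Without the replicate block 132 genes passed, 71 higher and 61 lower, and OLE1 had an adjusted p of 0.0798 and FAA4 one of 0.103, so the block changed no call among the 9 genes, but ELO2 passed without it (0.0374). Passing genes were 674 without background correction, 100 with median centring (54 higher, 46 lower), 1051 with flagged spots kept, 514 with dim genes left out, 527 with an intensity trend in the prior (275 higher, 252 lower), 363 with the median over spots and 462 in the deposited ratios (62 higher, 400 lower). With 1 array left out they were 0 to 1530 (1530 without Whi3-dRRM-TAP array 2, 530 without Whi3-dRRM-TAP array 1). OLE1 passed in 9 alternatives: no background correction (adjusted p = 0.00491), median centring (0.0288), flagged spots kept (5.48e-05), dim genes left out (0.00115), intensity trend (0.00605), median over spots (0.0253), deposited ratios (4.40e-04), and without Whi3-dRRM-TAP array 1 (0.0194) or 2 (0.0205). Without Whi3-TAP array 1 or 2 its adjusted p was 0.376 and 0.414. FAA4 passed in 5 alternatives (lowest 0.00549), FAS1 in 3 (lowest 0.0313), ACC1 in 2 (lowest 0.0352) and ACB1 without Whi3-dRRM-TAP array 2 (0.0378), while ACB1 fell to 0.11 at its lowest. The cause of these moves was not tested. Genes above the limit were 59 with dim genes left out, when 1278 were tested, and 193 to 266 with 1 array left out. Of the 9 genes, 2 were above it (OLE1 and FAA4) without background correction, with median centring, with flagged spots kept and in the deposited ratios, and 1 to 2 with 1 array left out.

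Over total RNA in Whi3-TAP, 1476 genes passed without background correction, 1532 with flagged spots kept and 404 in the deposited ratios (265 higher, 139 lower), against 447 higher and 384 lower here and 344 higher and 469 lower with median centring. In Whi3-dRRM-TAP 1677 passed with median centring and 1682 in the deposited ratios (1423 higher, 259 lower), against 586 higher and 396 lower here. The deposited Whi3-dRRM-TAP arrays had medians of 1.08 and 0.52, an offset that the test against 0 includes. In total RNA 88 passed without background correction, 51 with an intensity trend, 89 with median scaling and 0 to 62 with 1 array left out (62 without Whi3-dRRM-TAP array 2), and none of the 9 genes passed in any of them.

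Some values that changed sign were near 0, while others reached -0.97 (OLE1 over total RNA in Whi3-dRRM-TAP). With median centring, the net log ratio was 0.36 for FAS2 and 0.037 for RSP5, FAA3 over total RNA was -0.0067 in Whi3-TAP, OLE1, ACC1 and FAA4 over total RNA were -0.97, -0.92 and -0.62 in Whi3-dRRM-TAP, and OLE1 in total RNA was -0.16. With print-tip loess, the net log ratio was 0.30 for FAS2 and 0.15 for RSP5, OLE1 and SPT23 over total RNA were -0.095 and -0.047 in Whi3-dRRM-TAP, and OLE1 and FAA3 in total RNA were -0.023 and -0.010. In the deposited ratios, the net log ratio was -0.42 for SPT23, 0.23 for FAS2, -0.36 for MCT1 and -0.12 for SLC1, and OLE1, ACC1 and FAA4 were -0.50, -0.45 and -0.14 in Whi3-dRRM-TAP. The median net log ratio of all genes was -0.48 there. Relative to it SPT23 stood at 0.06, MCT1 at 0.12 and SLC1 at 0.36, positive as with loess, whereas FAS2 stood at 0.71 against -0.18 with loess. RSP5 was positive relative to the median with loess (0.08), median centring (0.24) and print-tip loess (0.22). With the median foreground, RSP5 had a net log ratio of 0.052, SPT23 was -0.18 in Whi3-dRRM-TAP and FAA3 -0.014 in total RNA. With the median over spots, SPT23 had a net log ratio of -0.0075, and OLE1, SPT23 and FAS1 in total RNA were -0.063, -0.024 and 0.0041. With flagged spots kept, FAA3 and RSP5 had net log ratios of 0.073 and 0.089, SPT23, FAA3 and FAA4 were -0.067, -0.032 and -0.025 in Whi3-dRRM-TAP, and OLE1, SPT23 and ACB1 in total RNA were -0.017, -0.043 and 0.16. In total RNA, median scaling gave 0.22 for FAS1 and 0.38 for ACC1, no background correction 0.043 for ACC1, and leaving out saturated spots -0.52 for OLE1 and 0.0052 for ACC1. With 1 array left out, the net log ratio of SPT23 was between -0.045 and 0.61, of FAA3 between -0.29 and 0.061 and of RSP5 between -0.13 and 0.11. Total RNA was then between -0.030 and 0.12 for OLE1, -0.11 and 0.35 for SPT23, -0.46 and 0.13 for FAS1, -0.12 and 0.10 for ACC1, -0.069 and 0.42 for FAA1 and -0.038 and 0.082 for FAA3. Dim signal limits SPT23, MGA2 and ACB1, which were not above background in the immunoprecipitate of any Whi3-dRRM-TAP array with a value. FAA3 was above background there on array 2 only.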
